A study of Homo sapiens with 15 samples.

Results

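The genes described here encode the machinery that carries proteins into mitochondria. They were taken as every gene whose symbol begins with TIMM or TOMM followed by a number, together with SAMM50, MTX1, MTX2, CHCHD4, GFER, PAM16, GRPEL1, PMPCA and PMPCB, and were found on the array through the RefSeq accession of each probe. This gave 33 genes with 39 probes, out of 19483 genes whose probes could be matched to a RefSeq gene. TIMM23B had no probe of its own, and because it is nearly identical to TIMM23 the TIMM23 values are uncertain.

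The cells were PE/CA-PJ41, a human oral squamous carcinoma line, labelled as a transgenic line in both groups. CYGB+ cells held human cytoglobin cDNA in the pCMV6-Neo vector and were selected as stable clones in G418. For NCE cells the labels give an empty transfection vector, whereas the study's text calls its NCE cells the parent line without transfection, so whether the groups share the vector, its neomycin resistance and the selection is not settled. Per the study's text CYGB+ is 1 clone, and a difference between CYGB+ and NCE cells cannot be told apart from a difference between clones, or from one due to the vector and selection if NCE lacked them. All cells were kept in medium for 24 h before RNA was taken. Each group had 3 biological replicates, and these were hybridised on 9 NCE arrays and 6 CYGB+ arrays. The comparison asks how the transcript levels of import genes differ between cells that carry the cytoglobin cDNA and the NCE control cells.

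Nearly all nuclear-encoded mitochondrial proteins are made in the cytosol and have to cross the mitochondrial membranes. The TOM complex forms the entry pore of the outer membrane, and the SAM complex inserts barrel-shaped proteins into that membrane. Small TIM chaperones escort hydrophobic proteins through the intermembrane space, where CHCHD4 and GFER also introduce disulphide bonds. The TIM22 complex inserts carrier proteins into the inner membrane, whereas the TIM23 complex and its matrix motor pull precursors with a cleavable presequence into the matrix, where the processing peptidase removes that presequence.

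The arrays set limits on every comparison below. Between 48.4% and 57.3% of the probes were well above background on an array, and 1 array, CYGB+ replicate 1 array repeat 1, stood apart from its group with a median correlation of 0.940, against 0.974 to 0.992 for the other 14 arrays. Of the 9 NCE arrays 8 lay on slide 1, while the remaining NCE array and all 6 CYGB+ arrays lay on slide 2, so that slide and group are nearly the same split. The CYGB probe, meant to check the labels, was bright in both groups, with log2 intensities of 11.87, 12.16 and 11.94 in NCE replicates 1 to 3 and of 11.36, 12.43 and 11.96 in CYGB+ replicates 1 to 3. These values overlap, and the difference was -0.07 (SE 0.25, adjusted p = 0.88, limma). Where the probe lies relative to the transfected cDNA is not given in the sources used here, and the groups are therefore named by their labels, each direction below being that of replicates labelled CYGB+ against replicates labelled NCE. All 6 squamous epithelial markers were above background, with a summed log2 level of 14.85 to 15.07 in NCE and 14.77 to 15.43 in CYGB+. Among them KRT6A fell by 0.51 on the log2 scale in the replicates labelled CYGB+ (adjusted p = 0.027, limma), and KRT14 differed by 0.72 without overlap of the groups (adjusted p = 0.080). Of the fibroblast markers 2 of 5 were above background, COL1A1 and COL1A2. The summed log2 level of all 5 was 8.94 to 9.07 in NCE and 8.47 to 8.59 in CYGB+. COL1A2 fell by 1.33 on the log2 scale in the replicates labelled CYGB+ (adjusted p = 0.0032, limma), whereas COL3A1 and PDGFRB were above background on no array. The leukocyte markers (1 of 3 above background, CD14) had summed log2 levels of 8.64 to 9.04 in NCE and 8.43 to 8.77 in CYGB+, and the endothelial markers (1 of 3, CDH5, with VWF above background on no array) had 7.76 to 8.46 and 7.72 to 7.83. Each sum takes in all listed markers of the cell type, so the fibroblast, leukocyte and endothelial sums include signal near background. PECAM1, above background on 1 of 9 NCE arrays, read 7.64 in NCE replicate 1, against 6.03 and 5.99 in NCE replicates 2 and 3. The part of the cell type markers in the results below was not tested.

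The upstream sequences of the genes past the threshold are shown because these genes changed in opposite directions, so that a reader can see the promoters on either side. RefSeq promoters (GRCh38.p14) were matched for 30 of the 33 genes, and TIMM8B, TOMM5 and GRPEL1 had no entry. Each line gives the last bases before the annotated start of the gene, 5′ to 3′ on the gene's own strand, with capitals marking CCGGAAG, the ETS (GABPA) motif, or CGCNTGCG, the NRF1 core with 1 free base, on either strand. GABPA and NRF1 are known as activators of nuclear genes for mitochondrial proteins. TOMM20 is added as a member that carries both motifs.
PMPCA (chr9:136410558-136410657, + strand): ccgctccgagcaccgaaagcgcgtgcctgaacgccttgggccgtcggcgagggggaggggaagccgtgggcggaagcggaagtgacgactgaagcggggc
TIMM8A (chrX:101348743-101348842, - strand): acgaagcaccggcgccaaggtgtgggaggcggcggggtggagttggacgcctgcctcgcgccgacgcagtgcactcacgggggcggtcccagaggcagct
TIMM10B (chr11:6481401-6481500, + strand): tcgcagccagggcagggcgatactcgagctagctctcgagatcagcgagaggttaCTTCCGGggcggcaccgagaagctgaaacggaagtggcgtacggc
TOMM20 (chr1:235128838-235128957, - strand): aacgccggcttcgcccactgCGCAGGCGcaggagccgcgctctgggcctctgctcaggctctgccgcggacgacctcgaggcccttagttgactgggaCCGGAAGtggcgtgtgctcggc
Over the 250 bases before the start, CCGGAAG was present in 9 of the 30 member promoters (30.0%) and in 10.2% of all 27305 genes with a promoter entry. CGCNTGCG was present in 10 of 30 (33.3%) against 10.5% of all genes, and its fully specified form CGCATGCG, which it includes, in 3 of 30 (10.0%) against 2.14%. The YY1 motif AAGATGGCG was found in 1 member, TOMM40L (3.33%), against 0.784% of all genes. A match of letters is not a measured binding site, and the absence of a match says only that these letters are not in this window.

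Across the 33 import genes 3 were higher and 1 was lower in the replicates labelled CYGB+, and 29 did not pass the test (limma on the 3 against 3 replicate means, Benjamini-Hochberg adjustment over all probes tested, adjusted p under 0.05). PMPCA, TIMM8B and TIMM8A were higher and TIMM10B was lower. The 4 genes are 12.1% of the members, beside 10.8% of all 22311 probes tested (5.26% higher and 5.53% lower), so the share of members called was near that of the array as a whole. The 4 calls came from 5 of the 39 probes, since both probes of TIMM8B passed. At an unadjusted p under 0.05, 11 of the 33 genes passed, beside 27.5% of all probes tested. In these bulk RNA samples, fewer cells making a transcript and less of it per cell cannot be told apart, and the p-values measure the spread between RNA extractions of the same cell lines.

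The differences of the members leaned to one side. The median log2 difference over the 33 genes was 0.11, beside -0.01 over all probes tested, and 27 of the 33 differences were above 0, beside 49.0% of all probes. The replicate values of the groups did not overlap for 11 of 33 genes, 9 of them higher and 2 lower in CYGB+, beside 33.3% of all probes (16.0% higher and 17.4% lower). These figures describe the members and were not tested, since probes of one array are not independent.

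**Figure D1:**
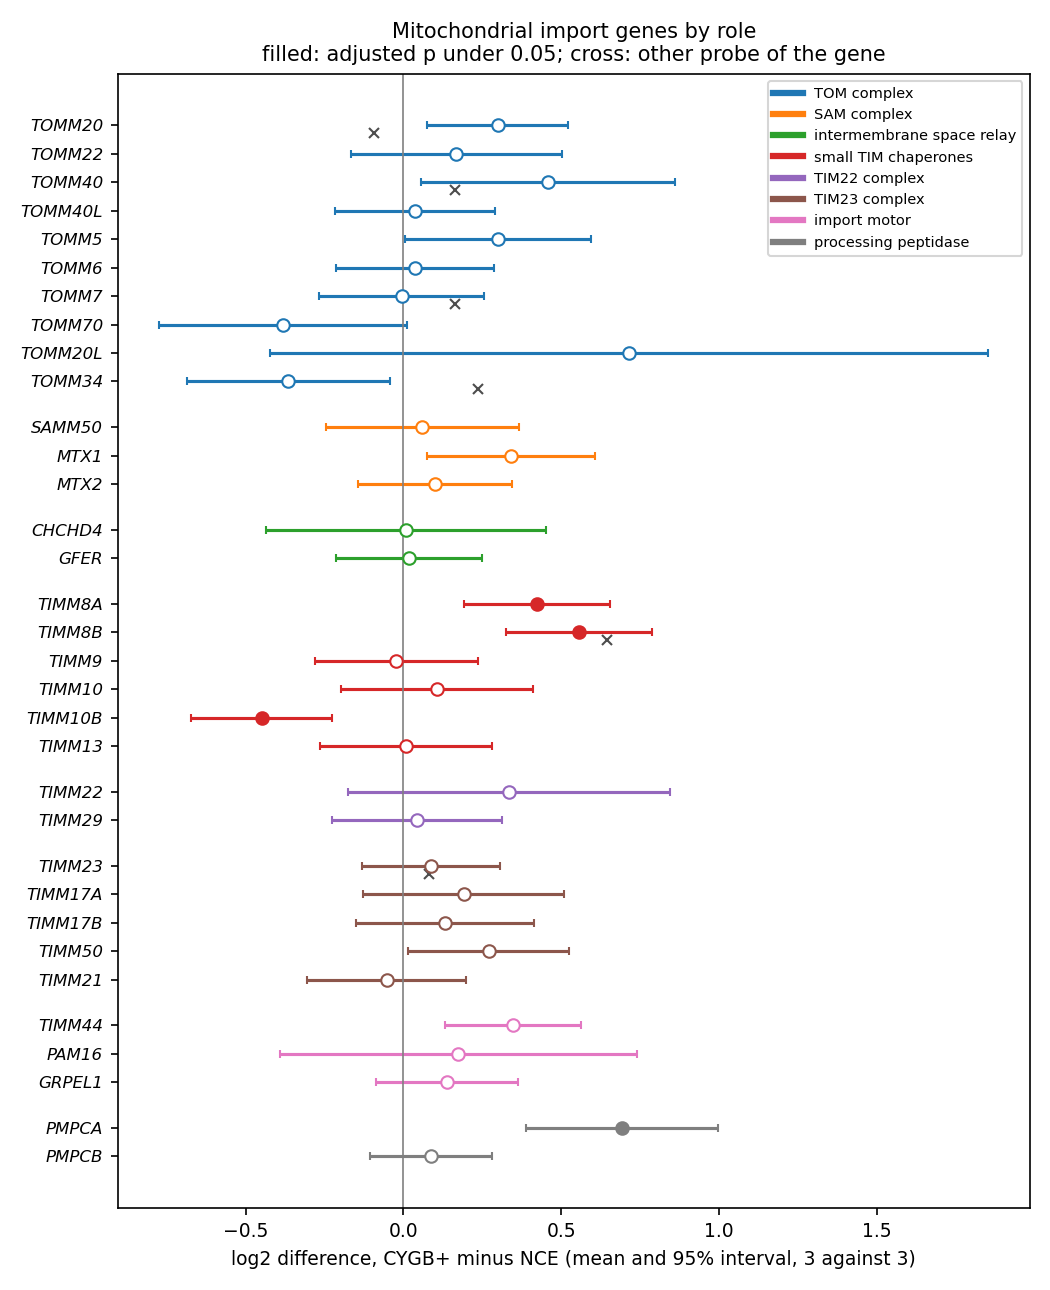
Log2 difference between CYGB+ and NCE (x axis, mean with 95% interval, 3 against 3 replicates) for the 33 import genes in the order of their roles (y axis). Filled points mark the 4 genes with an adjusted p under 0.05 and crosses mark the other probe of the 6 genes that have 2. Most points lie to the right of 0, and TIMM10B, TOMM70 and TOMM34 lie furthest to the left.

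At the end of the import path, PMPCA, the alpha subunit of the matrix processing peptidase that recognises presequences, was higher in the replicates labelled CYGB+. Its log2 intensity was 10.40, 10.00 and 10.17 in NCE replicates 1 to 3 and 10.87, 11.02 and 10.75 in CYGB+ replicates 1 to 3. Every CYGB+ replicate was above every NCE replicate, and the difference was 0.69 (SE 0.13, 1.62-fold, adjusted p = 0.021, limma). The partner subunit PMPCB, which carries the catalytic site, was dim, being well above background on 3 of 9 NCE and 5 of 6 CYGB+ arrays. Its difference was 0.09 (SE 0.08, adjusted p = 0.53, limma). Over the alternatives in which PMPCB was tested the difference ran from 0.054 to 0.63 and the adjusted p from 0.050 to 0.89. Its size is therefore not settled. Whether the subunits differ from each other in their response was not tested.

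Among the 6 small TIM chaperones 2 were higher, 1 was lower and 3 did not pass the test. TIMM8B, which in its family forms complexes that chaperone inner membrane proteins, had log2 intensities of 12.05, 11.96 and 12.00 in NCE and 12.50, 12.71 and 12.47 in CYGB+. The replicate values of the groups did not overlap, with a difference of 0.56 (SE 0.10, 1.47-fold, adjusted p = 0.018, limma). Its other probe gave 11.55, 11.33 and 11.51 in NCE and 12.31, 12.08 and 11.93 in CYGB+, a difference of 0.65 (SE 0.12, adjusted p = 0.023). Both probes of the gene thus moved the same way. Single arrays of the other probe overlapped, with an NCE array at 11.82 and a CYGB+ array at 11.79. Both probes were read on the same arrays, so their likeness does not separate group from slide.

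TIMM8A, the relative of TIMM8B that is lost in Mohr-Tranebjaerg deafness-dystonia syndrome and works together with TIMM13, had log2 intensities of 9.80, 9.94 and 9.93 in NCE and of 10.37, 10.19 and 10.39 in CYGB+. The difference was 0.42 (SE 0.10, 1.34-fold, adjusted p = 0.038, limma). With the replicate number as a block the call was lost at the same difference (adjusted p = 0.054), and over all 22 alternatives the adjusted p of TIMM8A ran from 0.0073 to 0.71. TIMM13 itself was 0.01 (SE 0.12, adjusted p = 0.98), with 5 of 6 CYGB+ arrays well above background.

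TIMM10B, a small TIM that associates with the TIM22 complex, was the only import gene past the threshold with a lower level in CYGB+. Its log2 intensity was 10.42, 10.41 and 10.43 in NCE and 9.92, 9.88 and 10.11 in CYGB+. The NCE values had almost no spread as replicate means, whereas single NCE arrays ran from 10.30 to 10.52. The arrays of CYGB+ replicate 1 read 10.27, on the array that stands apart, and 9.56. The groups did not overlap, and the level fell by 0.45 on the log2 scale (SE 0.09, 1.37-fold lower, adjusted p = 0.029, limma). TIMM9 and TIMM10, which together form the principal chaperone ring, had differences of -0.02 (SE 0.11, adjusted p = 0.92) and 0.11 (SE 0.13, adjusted p = 0.64).

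The calls changed more than the sizes did when a single replicate was left out. Over all probes the 2406 calls also became fewer, with 2391, 1726 and 1272 without CYGB+ replicates 1, 2 and 3. Without NCE replicates 1, 2 and 3 there were 1177, 507 and 523. Fewer calls were thus not particular to the import genes. PMPCA was not called without CYGB+ replicate 2 (0.62, adjusted p = 0.052, limma), NCE replicate 2 (0.60, adjusted p = 0.084) or NCE replicate 3 (0.68, adjusted p = 0.086), and over all alternatives its adjusted p ran from 3e-04 to 0.71. TIMM8B was not called without NCE replicate 2 (0.53, adjusted p = 0.084) or NCE replicate 3 (0.56, adjusted p = 0.077), with a range of 0.00016 to 0.68 over all alternatives. TIMM10B was not called without CYGB+ replicate 2 (-0.41, adjusted p = 0.068) or without any 1 of the 3 NCE replicates (-0.45 each, adjusted p = 0.080, 0.11 and 0.11), with a range of 0.0073 to 0.44. TIMM8A was called without CYGB+ replicate 2 (0.49, adjusted p = 0.042) and not called without any other single replicate (0.38 to 0.45, adjusted p = 0.063 to 0.12). Without the array that stands apart (an alternative chosen after the data were seen) 6 of the 33 genes were called, beside 4121 of the 22311 probes: PMPCA, TIMM8B, TIMM10B and in addition TIMM44, TOMM20 and TOMM40, but not TIMM8A (0.34, adjusted p = 0.052). Every one of these differences had the sign of the full comparison. For PMPCA, TIMM8B, TIMM8A and TIMM10B a left-out replicate could not have turned the sign, because their groups did not overlap.

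**Figure D2:**
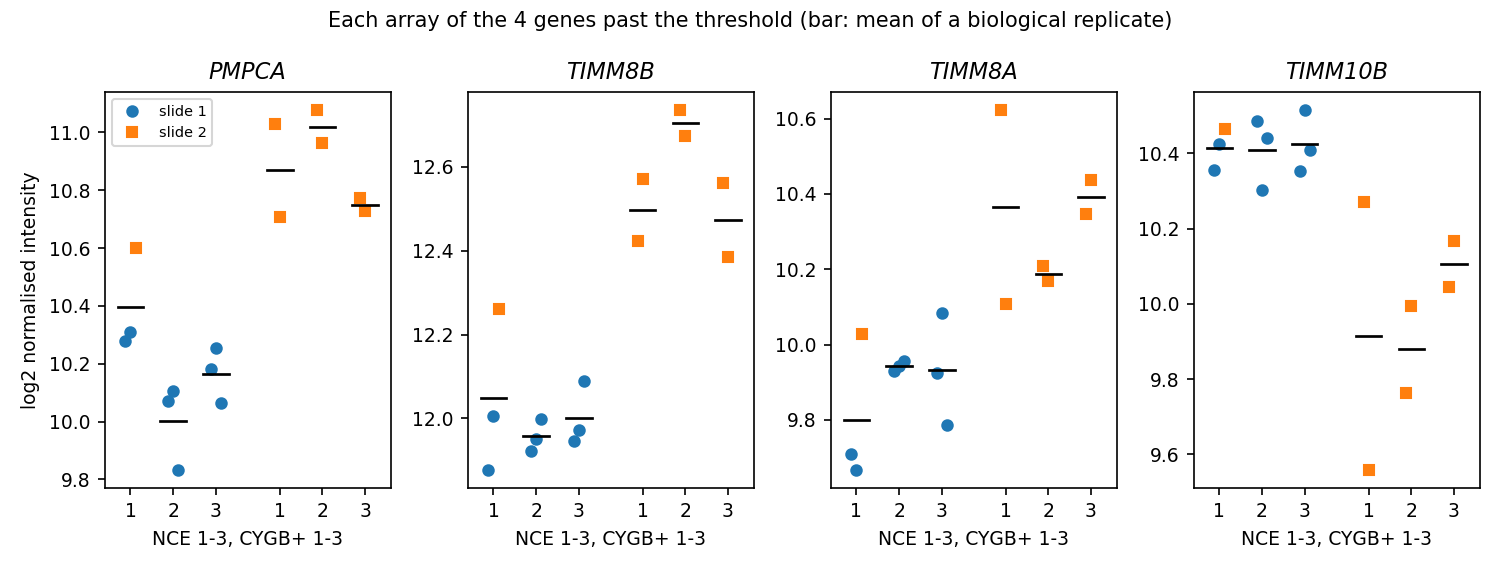
Log2 normalised intensity (y axis) on each of the 15 arrays for PMPCA, TIMM8B, TIMM8A and TIMM10B, grouped by biological replicate (x axis, NCE 1 to 3 and then CYGB+ 1 to 3). Circles are slide 1, squares are slide 2 and bars are replicate means. The NCE array on slide 2 is the highest NCE array for PMPCA (10.60) and TIMM8B (12.26), and TIMM8A has 1 slide 1 array above it (10.08 against 10.03).

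The NCE array on slide 2 held the same biological replicate as 2 of the arrays on slide 1. That replicate could thus be read on both slides, although with only 1 array on slide 2. The slide 2 array was higher than the mean of its slide 1 repeats by 0.31 for PMPCA, 0.32 for TIMM8B, 0.34 for TIMM8A and 0.08 for TIMM10B. Array repeats of the other 5 biological replicates, each within 1 slide, spanned 0.048 to 0.32 for PMPCA, 0.061 to 0.18 for TIMM8B, 0.025 to 0.51 for TIMM8A and 0.12 to 0.71 for TIMM10B. The largest span of PMPCA, TIMM8A and TIMM10B was in each case that of CYGB+ replicate 1, which holds the array that stands apart. Next came 0.27 for PMPCA (NCE replicate 2) and 0.30 for TIMM8A (NCE replicate 3). For TIMM10B it was 0.23 (CYGB+ replicate 2). The difference between slides was thus above every such span for TIMM8B and below every one for TIMM10B. For PMPCA and TIMM8A it was above the spans of all these replicates except CYGB+ replicate 1. It rests on 1 slide 2 array, so slide and array noise cannot be told apart. For the genes called higher the slide difference is in the direction of the group difference and smaller than it. For TIMM10B it is in the opposite direction. With the slide as a block on the 15 arrays, where array repeats enter with a consensus correlation of 0.188 within a replicate and thus add to the degrees of freedom beyond the 6 biological replicates, the difference was 0.33 for PMPCA (adjusted p = 0.45), 0.29 for TIMM8B (adjusted p = 0.32), 0.23 for TIMM8A (adjusted p = 0.71) and -0.50 for TIMM10B (adjusted p = 0.26). Within slide 2 alone, where NCE is a single array assumed to vary like the CYGB+ replicates, it was 0.28, 0.30, 0.29 and -0.50 (adjusted p = 0.71, 0.68, 0.68 and 0.44). None of the 33 genes passed in either fit, at an unadjusted p under 0.05 in 5 and 2 of them, while 3.42% and 0.0224% of all probes passed. The size of the TIMM10B difference was thus about the same within the slide, whereas those of PMPCA, TIMM8B and TIMM8A were smaller.

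**Figure D3:**
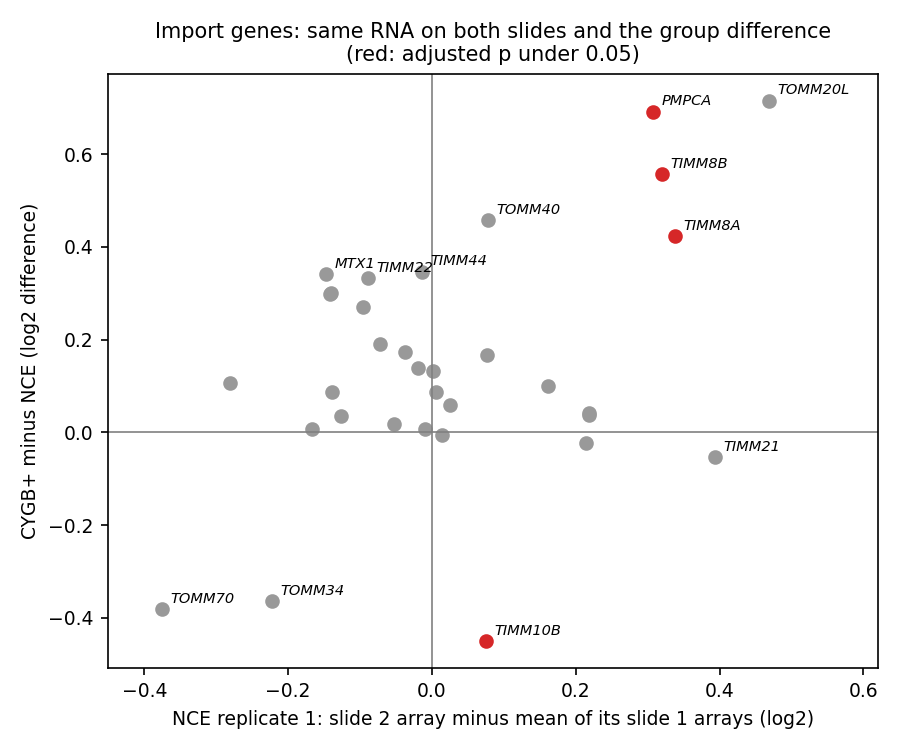
For each of the 33 import genes, the slide 2 array of NCE replicate 1 minus the mean of its slide 1 arrays (x axis, log2) against the CYGB+ minus NCE difference (y axis, log2). Genes past the threshold are red. PMPCA, TIMM8B and TIMM8A lie at 0.31 to 0.34 on the x axis, TIMM10B at 0.08, TIMM44 at -0.01 and MTX1 at -0.15.

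None of the 10 outer membrane entry genes passed the test. TOMM20 and TOMM70 are receptors for incoming precursors. TOMM20 was 11.42, 11.35 and 11.27 in NCE and 11.68, 11.72 and 11.54 in CYGB+, groups that did not overlap, with a difference of 0.30 (SE 0.09, adjusted p = 0.092, limma), but its other probe gave -0.09 (SE 0.12, adjusted p = 0.68). TOMM70 had a difference of -0.38 (SE 0.17, adjusted p = 0.19, with 0.039 to 0.94 over the 22 alternatives). It was called with 15 arrays and a random block for the replicate, but its sign turned with slide as a block (0.082) and within slide 2 (0.15). In NCE replicate 1 its slide 2 array was itself lower than the slide 1 arrays by 0.38 (-0.38 on the log2 scale).

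TOMM40, the pore-forming barrel, differed by 0.46 (SE 0.17, adjusted p = 0.14, limma) on one probe and by 0.16 (SE 0.16, adjusted p = 0.55) on the other, and its groups overlapped on both. Without CYGB+ replicate 1, TOMM40 passed at 0.63 (adjusted p = 0.035), and without the array of that replicate that stands apart it passed at 0.65 (adjusted p = 0.0081). Over all 22 alternatives its adjusted p ran from 0.0069 to 0.74. TOMM22, the central receptor, differed by 0.17 (SE 0.14, adjusted p = 0.49).

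The small TOM subunits stabilise the pore. TOMM5 differed by 0.30 (SE 0.13, adjusted p = 0.17, limma) with groups that did not overlap, TOMM6 by 0.04 (SE 0.11) and TOMM7 by -0.01 (SE 0.11), with 0.16 (SE 0.17) on the other TOMM7 probe. TOMM40L, a relative of the pore, differed by 0.04 (SE 0.11). None of TOMM6, TOMM7 and TOMM40L kept its sign in all alternatives.

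TOMM34, a cytosolic cochaperone for precursors, gave opposite signs on its 2 probes. One probe read 13.01, 12.95 and 12.85 in NCE and 12.36, 12.84 and 12.51 in CYGB+ (difference -0.36, SE 0.14, adjusted p = 0.14, limma), while the other gave 0.24 (SE 0.17, adjusted p = 0.43), so the gene has no settled direction.

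TOMM20L, a relative of TOMM20, had the largest point estimate of the 33 genes, 0.72, and also the largest standard error, 0.48 (adjusted p = 0.39, limma). Its highest value, 11.66, was that of CYGB+ replicate 1 array repeat 1, the array that stands apart, whereas the other repeat of the same replicate was 9.22 and the remaining 13 arrays lay between 8.23 and 8.98. Without that array the difference was 0.31 (SE 0.20, adjusted p = 0.33), and its adjusted p was above 0.05 in all alternatives in which it was tested.

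The SAM complex had 3 measured members and no call. MTX1, a metaxin that helps precursors reach the complex, was 9.64, 9.44 and 9.42 in NCE and 9.90, 9.95 and 9.68 in CYGB+, groups that did not overlap, with a difference of 0.34 (SE 0.11, adjusted p = 0.10, limma). The slide 2 array of NCE replicate 1 was lower than its slide 1 repeats (-0.15). SAMM50, the barrel that inserts other barrels, differed by 0.06 (SE 0.13, adjusted p = 0.81), and MTX2 by 0.10 (SE 0.10, adjusted p = 0.58) as the mean of 10 spots.

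Both genes of the disulphide relay had small differences, 0.01 for CHCHD4, the oxidoreductase (SE 0.19, 95% interval -0.44 to 0.45), and 0.02 for GFER, which reoxidises it (SE 0.10, 95% interval -0.21 to 0.25). Differences as large as those of TIMM8A lie inside the interval for CHCHD4 but outside that for GFER.

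For carrier insertion, TIMM22, the channel of the TIM22 complex, differed by 0.33 (SE 0.22, adjusted p = 0.37, limma) and its partner TIMM29 by 0.04 (SE 0.11, adjusted p = 0.85). In the TIM23 complex none of 5 measured genes passed the test. TIMM50, the receptor that faces the TOM complex, was 11.27, 11.25 and 11.00 in NCE and 11.51, 11.48 and 11.34 in CYGB+, without overlap (difference 0.27, SE 0.11, adjusted p = 0.16). The channel subunits TIMM23, TIMM17A and TIMM17B differed by 0.09 (SE 0.09), 0.19 (SE 0.14) and 0.13 (SE 0.12), and the other TIMM23 probe gave 0.08 (SE 0.14). TIMM21, which links the translocase to the respiratory chain, differed by -0.05 (SE 0.11).

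In the matrix motor TIMM44, the anchor of the motor at the channel, came nearest to the threshold of all members that did not pass. It was 9.22, 9.41 and 9.30 in NCE and 9.71, 9.63 and 9.61 in CYGB+, groups that did not overlap. The difference was 0.35 (SE 0.09, adjusted p = 0.055, limma). It was 0.41 with the slide as a block (adjusted p = 0.20) and 0.44 within slide 2 (adjusted p = 0.45), and its adjusted p over all alternatives ran from 0.0068 to 0.45. PAM16, the inhibitory J-like subunit, differed by 0.17 (SE 0.24), and GRPEL1, the nucleotide exchange factor, by 0.14 (SE 0.10). PAM16 is overlapped by the read-through gene CORO7-PAM16, from which its transcript may not be separated by the probe.

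**Figure D4:**
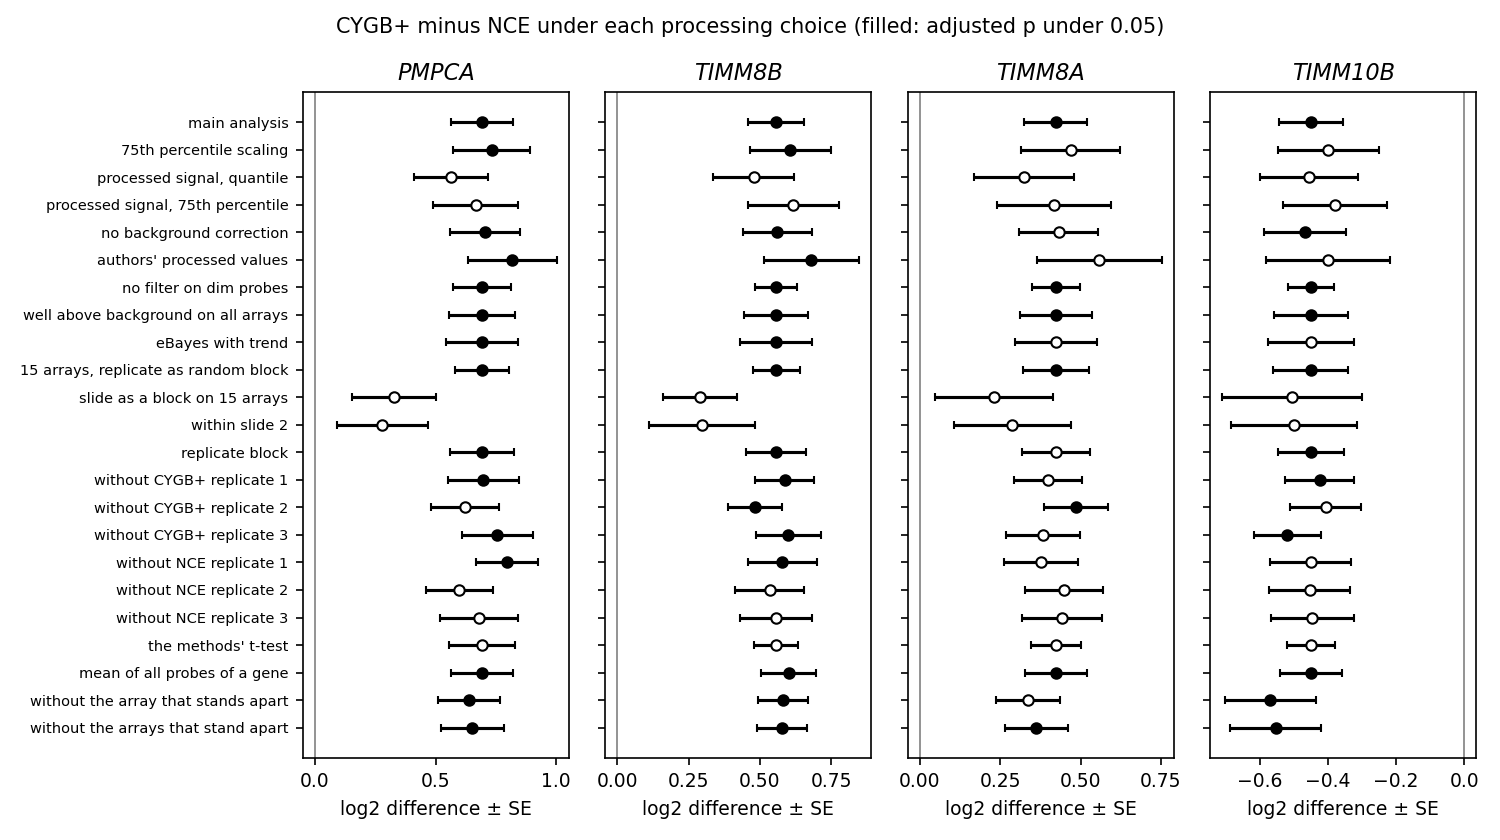
Log2 difference between CYGB+ and NCE with its SE (x axis) for PMPCA, TIMM8B, TIMM8A and TIMM10B under the main analysis and the 22 alternatives (y axis). Filled points have an adjusted p under 0.05. Alternatives of filter, variance trend, replicate block or t-test, and those with a replicate left out, could not change a sign. All points stay on one side of 0 for each gene, and those with slide as a block or within slide 2 are open for all 4 genes.

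Genes next to the called members on the chromosome were read to see whether they moved too. ENTR1, within 1 kb of PMPCA, differed by 0.01 (SE 0.09, adjusted p = 0.95, limma). SDHD, the membrane anchor subunit of succinate dehydrogenase next to TIMM8B, differed by -0.09 (SE 0.17, adjusted p = 0.77), and NKAPD1, which overlaps TIMM8B, by -0.10 (SE 0.12, adjusted p = 0.62). ARFIP2, beside TIMM10B, differed by 0.40 (SE 0.25, adjusted p = 0.36), and the neighbour of TIMM8A, BTK, had no tested probe. None of these neighbours passed the test.

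Other genes that act with the import machinery were listed by their function, with earlier results of these data known. Of the 27 genes measured 4 were higher, 2 were lower and 21 did not pass (22.2% called, beside 10.8% of all probes). Because of how the list was made, an excess of calls cannot be read from this share, and none was tested. The median difference of the 27 genes was 0.13. DNAJC15, a J-protein of the matrix motor, was 8.73, 8.41 and 8.36 in NCE and 9.44, 9.13 and 9.03 in CYGB+ (difference 0.70, SE 0.15, adjusted p = 0.029, limma). GRPEL2, the paralogue of the exchange factor GRPEL1, was 9.57, 9.55 and 9.55 in NCE and 10.44, 10.13 and 10.15 in CYGB+ (0.68, SE 0.11, adjusted p = 0.013). The other 3 of the 5 listed motor genes did not pass, with HSPA9, the matrix Hsp70, at 0.37 (SE 0.13, adjusted p = 0.12), DNLZ, its escort protein, at 0.34 (adjusted p = 0.15) and DNAJC19, another J-protein, at 0.07 (adjusted p = 0.78).

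Of 10 peptidases and proteases 2 were higher, 1 was lower and 7 did not pass, among them YME1L1 (-0.23, adjusted p = 0.22), IMMP2L (0.15, adjusted p = 0.32) and CLPP (0.34, adjusted p = 0.062). AFG3L2, a subunit of the matrix-facing AAA protease, was 8.47, 8.57 and 8.57 in NCE and 9.18, 9.27 and 9.18 in CYGB+ (0.67, SE 0.09, adjusted p = 0.0073, limma), and the slide 2 array of NCE replicate 1 differed from its slide 1 repeats by -0.03. It was called with slide as a block on the 15 arrays as well (0.74, adjusted p = 0.023), but not within slide 2 on replicate values (0.76, adjusted p = 0.26). HTRA2, an intermembrane space protease, differed by 0.51 (SE 0.12, adjusted p = 0.039), and was 0.50 with slide as a block (adjusted p = 0.18). The genes that were lower, IMMP1L, an inner membrane signal peptidase subunit, and OXA1L, the insertase for proteins from the matrix side, fell by 0.49 (SE 0.09, adjusted p = 0.018) and 0.50 (SE 0.11, adjusted p = 0.033). They were just short of the size set for naming a gene, an absolute difference of 0.5, and were chosen after their values were seen. With slide as a block IMMP1L was also called (-0.58, adjusted p = 0.045), whereas OXA1L (-0.39, adjusted p = 0.29), DNAJC15 (0.48, adjusted p = 0.48) and GRPEL2 (0.70, adjusted p = 0.18) were not. Within slide 2, where NCE is a single array, the differences were 0.41 for DNAJC15, 0.69 for GRPEL2 and 0.53 for HTRA2. They were -0.60 for IMMP1L and -0.38 for OXA1L. Leaving out NCE replicate 2 or NCE replicate 3 left AFG3L2 as the only related gene called, and AFG3L2 was called without each of the 6 replicates in turn.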

How the data were processed

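RNA of PE/CA-PJ41 cells, extracted on 3 occasions, was measured on 60-mer oligonucleotide arrays (per the labels, all 15 samples labelled with Cy3). Deposited scanner files, made with Feature Extraction 10.7.3.1 (protocol GE2_107_Sep09, hg19), give intensity values on a linear scale, not normalised by the authors. The series table holds the authors' processed values, which are on a natural log scale and centred per gene. Scale and centring were found by comparison with the scanner files and what else was done is not given in the sources used here; it was used as an alternative only. The red channel, which the labels do not describe, was not used, and the methods name the dyes differently from the labels.

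The green median signal and background were used, in place of the mean signal named in the plan, which the files used here do not hold. Outlier spots (0.916%) were left out. Background was corrected with normexp (offset 50), arrays were quantile normalised, spots of a probe were averaged, and array repeats were averaged into 6 biological replicate values. Probes well above background on at least 6 of 15 arrays were tested (22311 of 42405) with limma 3.58.1 (R 4.3.3) and Benjamini-Hochberg adjustment over all of them, with a threshold of 0.05. Fits were tested on simulated data with independent normal noise for each probe. The simulation held no slide effect and no outlying array, so it does not bear on those limits. For a gene with 2 probes the brighter one represents it. Of 27310 probes with a RefSeq accession, 25422 matched a gene. The number of arrays limits the precision.

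Replicate numbers are shared by the groups. Deviations from the group means correlated at 0.207, 0.229 and 0.300 for same-numbered replicates, all above 0.1. Some pairs of different number were also above 0.1: NCE 3 with CYGB+ 1 (0.168), NCE 1 with CYGB+ 2 (0.213) and NCE 2 with CYGB+ 3 (0.287). The remaining pairs lay between -0.495 and -0.404. This measure thus cannot show whether the numbers pair the samples. The main fit used no pairing, and the replicate block was an alternative. Arrays of one biological replicate were only a little more alike than other arrays of the group (consensus correlation 0.183).

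Replicate values were given for member genes with an adjusted p under 0.05 and an absolute log2 difference of at least 0.3, and for some others near the threshold or with groups that did not overlap. Related genes were named from an absolute difference of 0.5. Members and lists were chosen with earlier results of these data known. Alternatives covered signal, background, normalisation, dim probes, test, slide, pairing, left-out replicates and arrays.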

Additional observations from a re-analysis of the deposited data

How the results depend on the processing

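No sign of PMPCA, TIMM8B, TIMM8A or TIMM10B changed in the 22 alternatives. Many of these could not change a sign. Alternatives of filter, variance trend, replicate block or t-test leave the difference as it is. A left-out replicate cannot reverse groups that do not overlap. The sign was open to change mainly under the alternatives of signal, background, normalisation, slide and left-out arrays. PMPCA was past the threshold in 14 of them, TIMM8B in 15, TIMM10B in 10 and TIMM8A in 6. Among all 33 import genes (39 probes) and 27 related genes, 4 (5 probes) and 6 were called in the main analysis, 2 (3 probes) and 3 with 75th percentile scaling, 0 (0) and 3 with the processed signal and quantile scaling, 0 (0) and 2 with the processed signal and 75th percentile scaling, 2 (3) of 30 and 4 with the authors' values, 2 (3) and 5 with a variance trend, 10 (11) and 10 with 15 arrays and a random block for the replicate, 0 (0) and 2 with slide as a block, 0 (0) and 0 within slide 2, and 0 (0) and 2 with the methods' t-test. At an unadjusted p under 0.05, 6 and 9 import genes passed with the processed signal under quantile and 75th percentile scaling. With slide as a block it was 5, and with the methods' t-test 8. The share of all probes at this threshold was not worked out for any alternative. No excess of import genes can therefore be read from such counts. Leaving out 1 replicate gave 0 to 4 import genes (0 to 5 probes) and 1 to 6 related genes, and the count was 0 without NCE replicate 2 or without NCE replicate 3 (unadjusted p under 0.05 in 7 genes each) and 2 without NCE replicate 1. The cause was not tested. Probes called in all were 2406 in the main analysis, 1463 with 75th percentile scaling, 1850 and 1505 with the processed signal under quantile and 75th percentile scaling, 1444 of 15031 with the authors' values, 2432 with the trend, 4849 with the random block, 764 with slide as a block, 5 within slide 2 and 576 with the t-test, and 507, 523 and 1177 without NCE replicates 2, 3 and 1.

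The median difference of the import genes, 0.11, was 0.17 with 75th percentile scaling, 0.15 and 0.28 with the processed signal under quantile and 75th percentile scaling, 0.13 without background correction, 0.23 with the authors' values, 0.13 with probes well above background on all arrays and 0.14 within slide 2, and 0.082 to 0.13 with 1 replicate left out. After the data were seen, 2 alternatives were added. Without the array that stands apart the median was 0.16, and without the 2 arrays that correlated least with their groups it was 0.14. In each, 6 import genes (18.2%) were called, beside 18.5% and 19.4% of all probes, so the share was near that of the array. The CYGB difference was 0.081 with the processed signal and 75th percentile scaling, 0.047 with the authors' values and -0.33 to 0.20 with 1 replicate left out.

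With the replicate block 3 import genes (4 probes) and 6 related genes were called, beside 13.0% of all probes, and TIMM8A (adjusted p = 0.054) was the only import gene call that changed. Scan date followed the slide and was not run separately. Genes with dim probes, PMPCB and TIMM13, are limited by their signal over background.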
